A study of Homo sapiens with 6 samples.

Results

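The genes described here are 28 genes of cholesterol synthesis and of its control by SREBP2, among the 59653 gene symbols of a count table from SK-OV3 cells, a human ovarian carcinoma line. They were chosen by symbol, with earlier results of these data known, so their shares beside those of all tested genes are a description only. Of them, 19 encode enzymes of the route from acetyl-CoA to cholesterol, and 5 act in cholesterol uptake and transport. The other 4 encode the transcription factor SREBP2, its escort and the proteins that hold them back. All 28 passed the minimum for low counts and were among the 19008 genes tested. RNA was sequenced from SK-OV3 cells of wildtype genotype 48 h after transfection, in 3 libraries with a siRNA pool against the long non-coding RNA PVT1 (siPVT1) and in 3 with a non-targeting pool (siControl), in medium with full serum. Since 1 cell line and 1 siRNA pool were used, effects of lowering PVT1 and other effects of the pool cannot be told apart. The labels number the replicates but do not say that they were separate cultures, so p-values measure the spread between these libraries.

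Animal cells build cholesterol by joining acetyl-CoA units into mevalonate, turning mevalonate into isoprenoid units, joining these into squalene, and folding and trimming squalene into sterols. Most of these enzymes are transcribed under SREBP2, a factor made as a membrane protein of the endoplasmic reticulum. When sterols are plentiful, SCAP, the escort of SREBP2, is bound by INSIG proteins and the complex stays in the membrane. When sterols run low, SCAP carries SREBP2 to the Golgi, where proteases release its active part, which raises the genes of synthesis and uptake and also SREBF2 and INSIG1 themselves.

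Sequence before the start site was looked at for motifs of this control. Windows from 250 bases before to 50 bases after a start site were given by RefSeq (GRCh38.p14) for 24 of the 28 genes, and ACAT2, FDFT1, SQLE and SCARB1 had none. Searched on both strands were the sterol regulatory element TCACNCCAC, bound by SREBPs, the CCAAT box, bound by NF-Y, a usual partner of SREBPs, and the GC box GGGCGG, bound by SP1. A gene was counted if any of its windows held the motif. Only SREBF2 held the exact sterol regulatory element, 133 bases before its start. The share was 1.47% of the 11862 tested genes with a window and 1.39% of all 27305 genes with a window. With 1 mismatch allowed, a rule added after the data were seen, 10 of the 24 genes (41.7%) held it, against 30.7% of the tested genes. A CCAAT box was present in 19 of the 24 genes (79.2%), against 43.1% of tested genes and 39.7% of all genes with a window. The GC box was present in 23 (95.8%), against 74.3% and 48.3%. A CCAAT box stood in 13 of the 16 genes that were higher in siPVT1 past both thresholds and in 6 of the 8 others. These are matches of letters and were not tested for binding.

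The 250 bases before the start are shown for 6 genes that differ in motifs and in response, with matches to TCACNCCAC and to CCAAT or its reverse complement ATTGG in capitals. SREBF2 carries both motifs. INSIG1 carries a CCAAT box whereas INSIG2 and SCAP carry neither motif. MVK and NSDHL each carry 5 CCAAT boxes, of which a pair overlaps in NSDHL.
SREBF2 (chr22:41832855-41833104, plus strand): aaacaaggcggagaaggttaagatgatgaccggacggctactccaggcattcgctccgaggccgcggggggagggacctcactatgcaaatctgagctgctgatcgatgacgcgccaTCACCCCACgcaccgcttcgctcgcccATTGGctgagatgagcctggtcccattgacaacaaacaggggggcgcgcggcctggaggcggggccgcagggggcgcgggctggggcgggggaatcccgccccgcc
SCAP (chr3:47475942-47476191, minus strand): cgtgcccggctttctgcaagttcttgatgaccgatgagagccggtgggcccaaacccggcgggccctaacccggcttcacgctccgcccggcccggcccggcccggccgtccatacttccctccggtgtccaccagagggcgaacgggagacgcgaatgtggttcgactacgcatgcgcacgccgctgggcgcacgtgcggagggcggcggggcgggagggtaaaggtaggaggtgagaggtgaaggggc
INSIG1 (chr7:155297628-155297877, plus strand): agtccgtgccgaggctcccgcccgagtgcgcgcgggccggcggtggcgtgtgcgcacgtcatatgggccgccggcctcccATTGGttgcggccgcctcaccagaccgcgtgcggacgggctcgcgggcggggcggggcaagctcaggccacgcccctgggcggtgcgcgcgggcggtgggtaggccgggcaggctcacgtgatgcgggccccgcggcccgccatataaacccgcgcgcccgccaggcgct
INSIG2 (chr2:118088221-118088470, plus strand): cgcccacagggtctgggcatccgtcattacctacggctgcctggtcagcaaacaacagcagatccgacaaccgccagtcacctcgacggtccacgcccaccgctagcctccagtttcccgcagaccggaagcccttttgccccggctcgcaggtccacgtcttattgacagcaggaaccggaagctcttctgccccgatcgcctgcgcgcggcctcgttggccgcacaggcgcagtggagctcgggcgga
MVK (chr12:109573544-109573793, plus strand): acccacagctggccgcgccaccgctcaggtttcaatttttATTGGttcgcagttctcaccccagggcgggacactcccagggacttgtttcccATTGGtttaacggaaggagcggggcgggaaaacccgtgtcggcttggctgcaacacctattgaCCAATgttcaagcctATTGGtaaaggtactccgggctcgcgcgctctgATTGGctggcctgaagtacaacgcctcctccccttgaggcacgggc
NSDHL (chrX:152830813-152831062, plus strand): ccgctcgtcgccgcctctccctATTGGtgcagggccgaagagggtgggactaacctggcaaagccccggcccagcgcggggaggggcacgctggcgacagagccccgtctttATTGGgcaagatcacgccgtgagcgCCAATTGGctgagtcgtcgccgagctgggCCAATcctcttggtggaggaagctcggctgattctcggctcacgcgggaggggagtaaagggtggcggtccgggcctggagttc

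**Figure D1:**
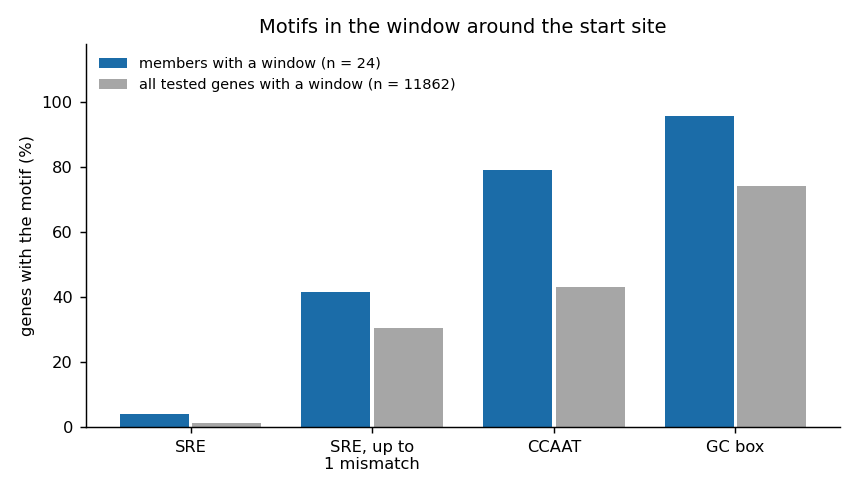
Share of genes (percent, vertical axis) whose window from 250 bases before to 50 bases after a start site held each motif, for the 24 members with a window (blue) and for all 11862 tested genes with a window (grey). CCAAT boxes were found in 79.2% of members and 43.1% of tested genes, and the exact SRE in 4.17% and 1.47%.

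Library totals lay between 28383171 and 35059576 counts. Replicates were compared in pairs by the chi-square per degree of freedom of their counts, which is lower for more alike libraries. It was lowest for siControl replicates 1 and 3 (1.79) and highest for siPVT1 replicates 1 and 3 (50.5). The other siControl pairs were at 5.4 and 6.2, and the other siPVT1 pairs at 9.4 and 21.7. The siPVT1 libraries were thus less alike, whereas the edgeR fit assumed the same spread in both groups. No cutoff for a duplicate was set. PVT1, the target, had 3298, 4090.5 and 3377 normalized counts (counts scaled to a common library size) in siControl and 2350, 2111 and 2062 in siPVT1, always in the order of replicates 1, 2 and 3. Its groups did not overlap, with siPVT1 below, as in 32.3% of tested genes. The log2 fold change of PVT1 was -0.72, or 0.606-fold (edgeR, adjusted p = 0.000342), short of a 2-fold change. The keratins KRT8 and KRT18 and the factor PAX8 were abundant, and the summed level of 6 epithelial markers was 641 to 712 CPM (TMM-scaled) in siControl and 898 to 998 in siPVT1. EPCAM was low, at 127 normalized counts or fewer in each library. The single markers did not move alike. KRT19 rose from a mean of 256 normalized counts in siControl to 1261 in siPVT1, a log2 fold change of 2.30. ERBB2 was lower, with means of 1249 in siControl and 929 in siPVT1, a log2 fold change of -0.43. Of 7 markers of leukocytes, endothelium and fibroblasts, 4 exceeded 3 counts in a library and CD3E was at 0 throughout. Their summed level was 20.6 to 21.8 CPM in siControl and 29.9 to 42.2 in siPVT1, with CD68, which many cell types carry in lysosomes, the most abundant, and the endothelial genes PECAM1 and VWF rose, with log2 fold changes of 2.99 and 1.66. The part of these markers in the results below was not tested.

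Genes of cholesterol synthesis and SREBP2 control were higher in siPVT1 as a group. Of the 28, 19 (67.9%) rose past both thresholds, which were an adjusted p below 0.05 and a change of 2-fold or more, where 11.8% of all tested genes did. None fell past both thresholds in edgeR or in DESeq2 (0 of 28), where 9.64% of tested genes did in edgeR. At an unadjusted p under 0.05, 1 member, SCARB1, was lower, as were 5822 of the 19008 tested genes. The median log2 fold change of the 28 was 1.498, and that of all tested genes was 0.0014. In 25 members every siPVT1 library lay above every siControl library, as in 33.2% of tested genes, and in 2 members, SCAP and SCARB1, every siPVT1 library lay below, as in 32.3% of tested genes. Only PMVK had groups that overlapped.

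**Figure D2:**
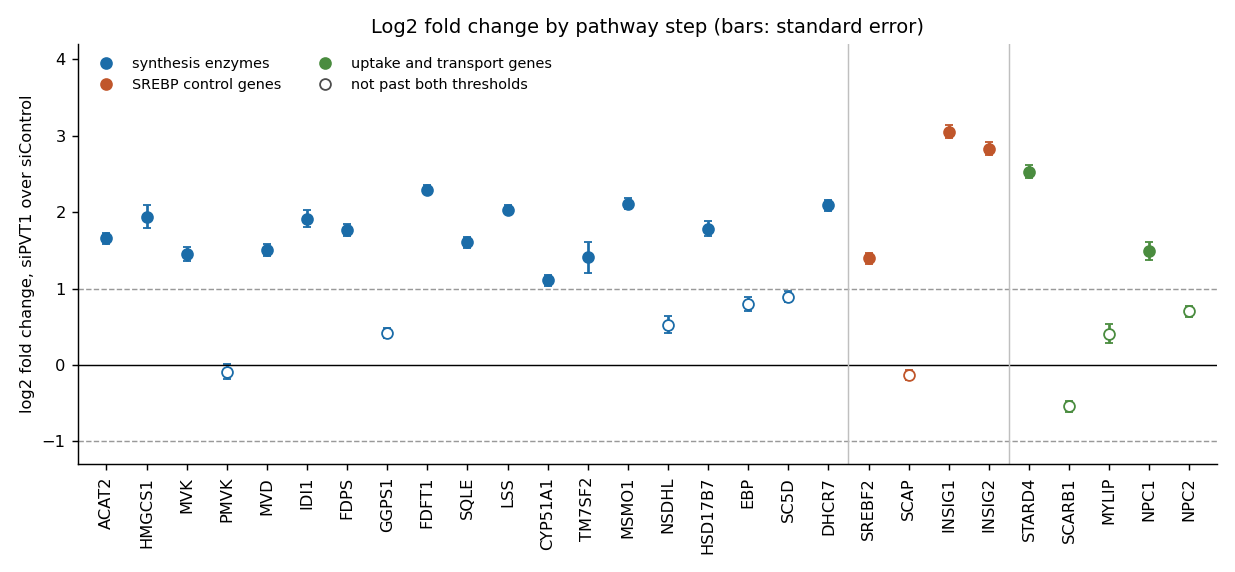
Log2 fold change of siPVT1 over siControl (vertical axis) for the 28 genes in pathway order, with standard errors as bars, and dashed lines at -1 and 1. The 19 filled points passed both thresholds and all lie above 1, with INSIG1 highest at 3.05 and SCARB1 lowest at -0.54.

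Among the enzymes, 14 of 19 (73.7%) rose past both thresholds, and PMVK, GGPS1, NSDHL, EBP and SC5D did not. The median log2 fold change of the 19 was 1.61. Summed over the 19 enzymes, 779, 738 and 777 CPM in siControl stood against 2280, 2481 and 2666 in siPVT1. The enzymes together were thus 3.24-fold higher, a ratio that moved to 2.92 with scaling by the total count. Every siPVT1 sum lay above every siControl sum.

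The first enzymes lead to mevalonate and its activated form. ACAT2, the thiolase that makes acetoacetyl-CoA in the cytosol, had 1362, 1237 and 1305 normalized counts in siControl and 3856, 4041 and 4420.0 in siPVT1. Its log2 fold change was 1.66 ± 0.074 at an adjusted p of 1.65e-06, where ± gives the standard error of a log2 fold change and the p comes from edgeR, adjusted over all genes tested. ACAT2 shares 454 of its 2639 exonic bases with TCP1 and 133 with SOD2 on the opposite strand, and both have more reads (mean counts 11532.5 and 36186 against 2655), so its count is uncertain in part. HMGCS1, the synthase of the next step, went from 2427, 2423 and 2374 to 7077, 9263 and 11400.4 normalized counts. HMGCS1 shares 2497 of its 6627 exonic bases with a lncRNA on the opposite strand. Its siPVT1 libraries spread more than those of any enzyme but TM7SF2, with a coefficient of variation of 23.4% against 1.23% in siControl, yet the lowest of them was well above all siControl libraries. The log2 fold change of HMGCS1 was 1.94 ± 0.154 (adjusted p = 2.2e-05).

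The kinases that act in succession on mevalonate differed. MVK, which adds the first phosphate, went from 246, 220.2 and 266 normalized counts to 657, 684 and 671, a log2 fold change of 1.46 ± 0.092 (adjusted p = 7.51e-06). PMVK, which adds the next phosphate, had 365, 313 and 358 in siControl and 298, 327 and 350.5 in siPVT1. The PMVK groups overlapped, and its log2 fold change was -0.086 ± 0.102 (adjusted p = 0.499). MVD, the decarboxylase that follows and yields isopentenyl diphosphate, was again higher, from 446, 405 and 463 to 1233, 1220.5 and 1274. Its log2 fold change of 1.504 ± 0.076 (adjusted p = 2.84e-06) was close to that of MVK. PMVK was the one enzyme of the 19 without an adjusted p under 0.05, a level that 29.5% of tested genes passed upward and 28.4% downward.

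In the isoprenoid steps, the enzymes on the way to sterols rose past both thresholds and the one on a side branch did not. IDI1, which interconverts the isoprene units, had 1354, 1194 and 1241 normalized counts in siControl and 4002, 4922 and 5369 in siPVT1, giving a log2 fold change of 1.92 ± 0.113 (adjusted p = 5.44e-06). FDPS, which makes farnesyl diphosphate, went from 3290.2, 2876 and 3236 to 10085, 10476 and 11414, a log2 fold change of 1.77 ± 0.077 (adjusted p = 1.64e-06). Both were separated from siControl by far more than their spread. GGPS1 makes geranylgeranyl diphosphate for protein prenylation, and was at 560, 555 and 548 against 726, 771 and 724. Its libraries did not overlap, but its log2 fold change of 0.42 ± 0.070 (adjusted p = 0.0011) stayed under 1. In GENCODE v44, GGPS1 shares 1422 of 3809 exonic bases with a further gene model on the same strand. How reads were split there is not known. The difference between GGPS1 and the other enzymes was not tested.

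All 3 enzymes from farnesyl diphosphate to the first sterol rose. FDFT1, squalene synthase, which commits carbon to sterols, had 2204, 2107 and 2185 normalized counts in siControl and 10776, 10636 and 10487 in siPVT1. This was the largest fold among the 19 enzymes, 4.91-fold, with a log2 fold change of 2.30 ± 0.055 (adjusted p = 1.74e-07), and the siPVT1 libraries varied by only 1.36%. SQLE, the epoxidase that limits the late pathway, went from 4886, 4604 and 4792 to 13370.0, 14509 and 15631, a log2 fold change of 1.61 ± 0.071 (adjusted p = 1.64e-06). Per kilobase of mean transcript length, SQLE had the highest level of the enzymes in both groups, but in siPVT1 it was not apart from FDPS beyond the spread. LSS, which cyclizes the epoxide to lanosterol, was at 748, 740 and 767 against 3088, 3016 and 3111, a log2 fold change of 2.03 ± 0.058 (adjusted p = 4.29e-07). The siPVT1 libraries of all 3 genes were far above the siControl libraries.

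The 8 enzymes that trim lanosterol to cholesterol were all higher at an adjusted p under 0.05, and 5 of them passed both thresholds. MSMO1, which oxidizes the methyl groups, went from 1257, 1253 and 1326 normalized counts to 5087, 5824 and 5619, a log2 fold change of 2.11 ± 0.071 (adjusted p = 7.04e-07). DHCR7, the reductase that makes cholesterol from its dehydro precursor, went from 663, 692 and 693 to 2754, 2804 and 3146, a log2 fold change of 2.09 ± 0.074 (adjusted p = 7.69e-07). For both genes the lowest siPVT1 library was far above the highest siControl library. HSD17B7, a ketoreductase, went from 226, 237 and 223 to 736, 746 and 880.4, a log2 fold change of 1.79 ± 0.098. A near-identical pseudogene of it, HSD17B7P2, had 3 counts at most. CYP51A1, the lanosterol demethylase, had 1332, 1307 and 1378 in siControl and 2662, 2904 and 3086 in siPVT1. Its log2 fold change of 1.11 ± 0.071 (adjusted p = 8.39e-06) lay nearest to the threshold among the enzymes that passed, and it was 0.96 with scaling by the total count. In GENCODE v44 it shares 2844 of 4171 exonic bases with a further gene model on the same strand, and how reads were split there is not known.

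TM7SF2, a sterol reductase whose reaction LBR also carries out, had the lowest level of the 28 per kilobase in siControl, 57.7 ± 0.88 normalized counts. It had 54.3, 53.5 and 52.7 normalized counts in siControl and 171, 152 and 104 in siPVT1, giving a log2 fold change of 1.41 ± 0.201 (adjusted p = 0.000492). Its standard error was the largest of the 28. Neither TM7SF2 (adjusted p = 0.0863) nor CYP51A1 (adjusted p = 0.184) passed a test against a 2-fold change. Under the fold threshold were SC5D, a desaturase (1298 to 1386.5 normalized counts in siControl and 2273 to 2603 in siPVT1), with a log2 fold change of 0.89 ± 0.073, EBP, a sterol isomerase (648 to 751 and 1118 to 1334), with 0.80 ± 0.093, and NSDHL, a decarboxylating dehydrogenase that acts between MSMO1 and HSD17B7, with 0.53 ± 0.109. EBP shares 644 of 1768 exonic bases with a further gene model on the same strand in GENCODE v44, so its count is uncertain in part. NSDHL was at 811, 796 and 856 against 1009, 1173 and 1363. The 3 enzymes that jointly remove the methyl groups, MSMO1, NSDHL and HSD17B7, were thus higher by 4.31-fold, 1.44-fold and 3.45-fold.

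**Figure D3:**
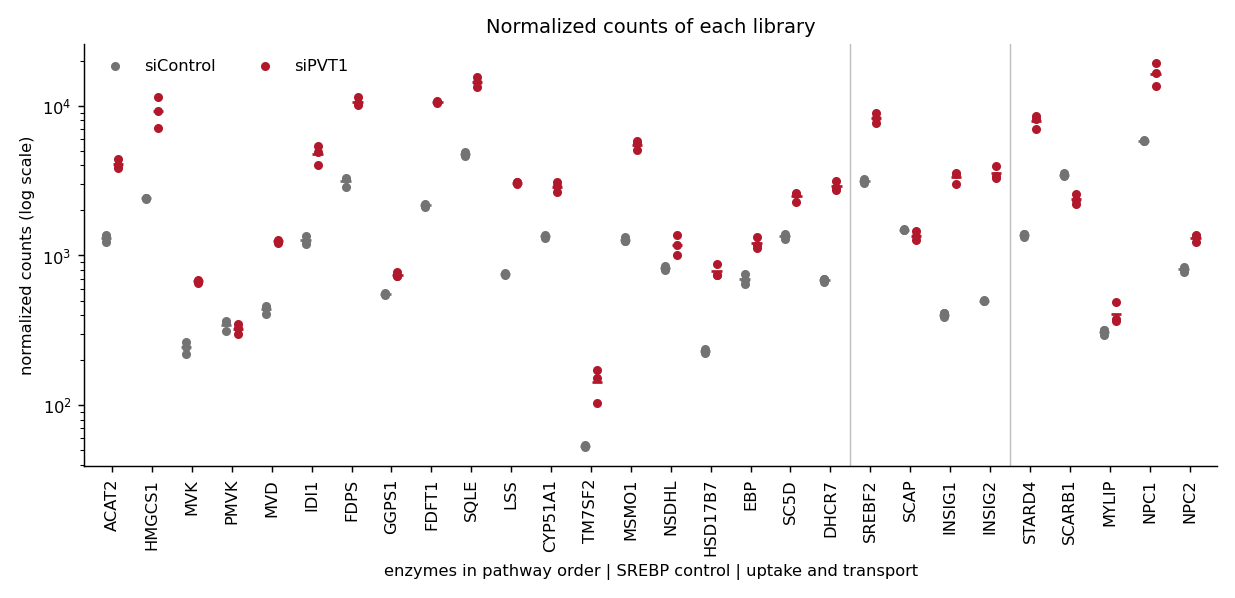
Normalized counts (vertical axis, log scale) of the 28 genes in each of 3 siControl (grey) and 3 siPVT1 (red) libraries, with short lines at the group means. The groups are apart in 27 genes and overlap in PMVK, whose libraries lie between 298 and 365.

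Among the control genes, SREBF2, INSIG1 and INSIG2 rose and SCAP did not. SREBF2, which encodes SREBP2, had 3170.2, 3058 and 3219 normalized counts in siControl and 9006, 8220 and 7646 in siPVT1, giving a log2 fold change of 1.40 ± 0.072 (adjusted p = 3.07e-06). SCAP, its escort, was at 1491, 1473 and 1495 against 1343, 1267 and 1452. The SCAP groups did not overlap, with siPVT1 the lower, but the log2 fold change of -0.13 ± 0.069 did not pass the test (adjusted p = 0.129). Without siPVT1 replicate 3 it was -0.20 with an adjusted p of 0.00568, and with scaling by the total count it was -0.28 with an adjusted p of 0.00596, still far from the fold threshold.

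INSIG1 and INSIG2 had the largest log2 fold changes of the 28. INSIG1, whose protein retains SCAP and which SREBP2 itself induces, went from 388, 411 and 412 normalized counts to 2991, 3512 and 3537. This was 8.29-fold, a log2 fold change of 3.05 ± 0.088 (adjusted p = 4.29e-07). INSIG2, a paralog that also retains SCAP but is not a usual SREBP2 target, went from 498, 501 and 496 to 3937, 3377 and 3307. It was 7.10-fold higher, a log2 fold change of 2.83 ± 0.085 (adjusted p = 4.59e-07). The highest siPVT1 library for INSIG2, replicate 1, was the lowest for INSIG1, and their sum varied little, at 6928, 6889 and 6843. The log2 ratio of INSIG1 to INSIG2 was -0.36, -0.28 and -0.27 in siControl and -0.40, 0.056 and 0.097 in siPVT1. These ratios overlapped (mean difference 0.22, two-sided exact permutation test, p = 0.4, where 3 against 3 libraries cannot go below 0.1), so a difference between the paralogs in response was not shown. Without siPVT1 replicate 1 the difference was 0.38, at an exact p = 0.2, the smallest that 3 against 2 libraries allow.

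Genes of uptake and transport were mixed, with 2 of 5 past both thresholds. STARD4, a carrier of cholesterol between membranes and an SREBP2 target, went from 1389, 1335 and 1387 normalized counts to 8151, 8545 and 6988, a log2 fold change of 2.53 ± 0.086 (adjusted p = 7.04e-07). NPC1, the lysosomal membrane protein that exports cholesterol taken up with lipoproteins, went from 5886, 5793 and 5807 to 19239, 16508 and 13459, a log2 fold change of 1.49 ± 0.118 (adjusted p = 2.2e-05). Both were far above siControl, and the siPVT1 libraries of NPC1 spread more, with a coefficient of variation of 17.6%. NPC2, the soluble partner of NPC1 in the lysosome, was at 812, 777 and 838 against 1359.7, 1365 and 1231. Its log2 fold change of 0.70 ± 0.072 (adjusted p = 8.03e-05) was under the fold threshold. MYLIP, a ubiquitin ligase that has lipoprotein receptors degraded and is induced by LXR rather than SREBP2, was at 292, 317 and 317 against 376, 365 and 488. Its log2 fold change was 0.41 ± 0.125 (adjusted p = 0.0217), with an adjusted p of 0.0842, 0.0525 and 0.0574 when siControl replicate 1, 2 or 3 was left out. SCARB1, the receptor that takes cholesterol from high density lipoprotein, was the one member lower at an adjusted p under 0.05, with 3531, 3403 and 3432 in siControl and 2579, 2196 and 2338 in siPVT1. Its log2 fold change was -0.54 ± 0.071 (adjusted p = 0.000304).

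The siPVT1 libraries differed in the size of the rise. Replicate 3 was the highest of the siPVT1 libraries in 11 of the 19 genes that rose, and replicate 1 the lowest in 11. HMGCS1, IDI1 and SQLE were of this kind. SREBF2, NPC1, INSIG2, FDFT1 and TM7SF2 had the reverse order, with replicate 1 the highest and replicate 3 the lowest. Over the 28 genes siControl libraries had a median coefficient of variation of 3.11% and siPVT1 libraries one of 7.90%, against 6.90% and 12.97% over all tested genes. The median log2 rise over the siControl mean in the 19 genes was 1.69, 1.74 and 1.94 in replicates 1, 2 and 3.

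**Figure D4:**
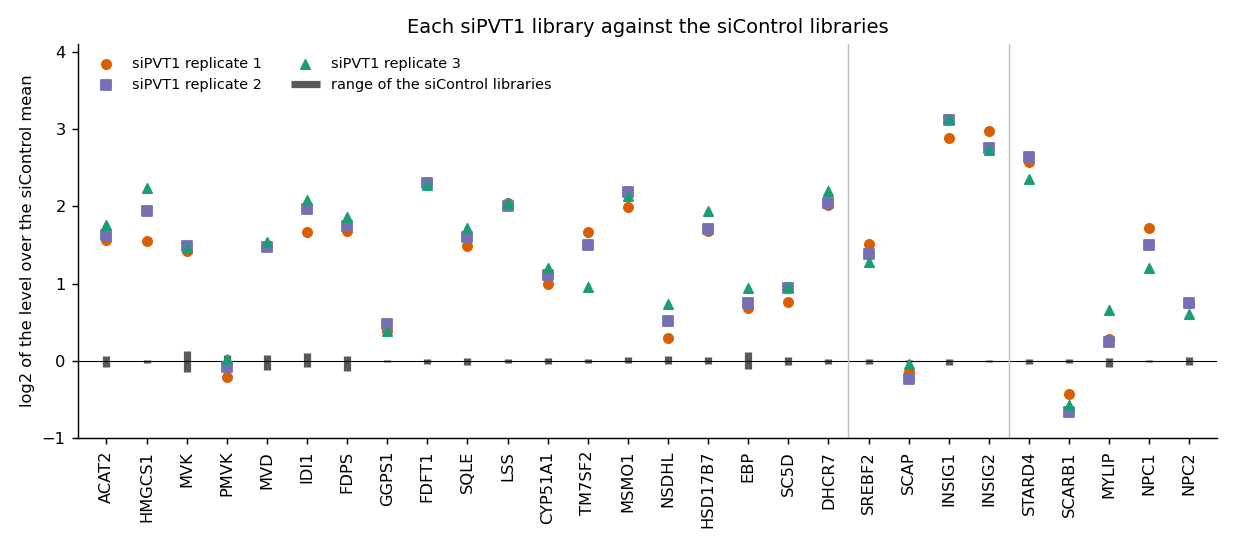
Log2 of the normalized count over the siControl mean (vertical axis) for each siPVT1 library, with the range of the siControl libraries as grey bars. For 25 genes all siPVT1 libraries lie above the siControl range, and HMGCS1 and NPC1 show opposite orders of replicates 1 and 3.

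Levels were compared between genes as normalized counts per kilobase of the mean annotated transcript. In siControl the order was led by NPC1 (4097 ± 35.3), SQLE (3765.5 ± 114), FDPS (3244 ± 233), FDFT1 (1594 ± 37.5) and HMGCS1 (1391 ± 17.1), each with SD and n = 3. HMGCS1 and SCARB1 (1323 ± 25.8), next in the order, were close. In siPVT1 the same 4 genes led, NPC1 with 11528 ± 2032, SQLE with 11471 ± 894, FDPS with 11033 ± 707 and FDFT1 with 7827 ± 106, and the first 3 of these were not apart beyond their spread. STARD4 came next in siPVT1, at 5574 ± 572, from rank 11 in siControl. This order depends on the length used. The mean annotated transcript of NPC1, 1422.8 bases, is shorter than its coding length of 3837 bases, and per kilobase of coding length NPC1 no longer led in either group, at 1519 normalized counts in siControl and 4275 in siPVT1. By coding length SQLE (2760), FDPS (2487) and STARD4 (2217) led in siControl, and 3 of the 5 leading genes, SQLE, FDPS and HMGCS1, were still among the first 5. In siPVT1 STARD4 (12774) led by that length, followed by FDPS (8459), SQLE (8408), FDFT1 (7430) and MSMO1 (6247).

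Related genes outside the 28 were taken from 5 lists of 60 genes, of which 53 were tested. Of these 53, 10 rose and 5 fell past both thresholds, beside 11.8% and 9.64% of all tested genes. The lists are short, and with at most 3 genes called in a direction their counts are given as a description only. The 13 tested genes of other steps and branches of the mevalonate pathway had a median log2 fold change of -0.23, with 2 higher and 1 lower. LBR, which shares the reaction of TM7SF2, had a log2 fold change of 1.05 ± 0.066. It did not pass both thresholds without siPVT1 replicate 3 or with scaling by the total count, settings that each gave 3 lower genes in this list. PDSS1, which makes the side chain of ubiquinone from the isoprenoid pool, fell, with 452, 472 and 460 normalized counts in siControl and 134, 190.1 and 308 in siPVT1, giving a log2 fold change of -1.12 ± 0.250. Its call was lost without siPVT1 replicate 1.

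In the list of SREBP processing and sterol sensing, 2 of 14 genes rose and 1 fell, with a median of -0.098. SREBF1, which encodes the related factor SREBP1, had a log2 fold change of 1.40 ± 0.064 (adjusted p = 1.93e-06), the same to 2 decimals as SREBF2. RNF145, a sterol-responsive ubiquitin ligase, was at 1.14 ± 0.079. MBTPS1, the protease that makes the first cut in SREBPs and here named after its values were seen, had 2272 to 2381 normalized counts in siControl and 4569 to 4642 in siPVT1, with a log2 fold change of 0.999, just under the threshold. With scaling by the total count 1 gene of this list rose.

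Of 6 tested lipoprotein receptor genes, 3 rose and 1 fell, with a median of 1.24. LRP1, a broad receptor of the family, went from 2652, 2476 and 2608 normalized counts to 15606, 12824 and 9594, a log2 fold change of 2.30 ± 0.160. VLDLR, a receptor for triglyceride-rich lipoproteins, was at 2.10 ± 0.096. In the list of LXR and efflux, 2 of 8 rose and 2 fell. ABCG1, a sterol exporter and LXR target, went from 94.3, 76.8 and 78.5 to 741, 593 and 416, a log2 fold change of 2.80 ± 0.220. CYP27A1, a sterol hydroxylase, was at 1.40 ± 0.211. The LXR genes themselves, NR1H2 and NR1H3, were both at -1.08, with standard errors of 0.102 and 0.155, and without siPVT1 replicate 3 neither passed. Of 12 genes of esterification and transport, 1 rose, GRAMD1C, a sterol transfer protein, at 1.37 ± 0.153, and 0 fell in edgeR and DESeq2. At an unadjusted p under 0.05, 8 of the 12 were higher and 2 lower. Of all 19008 tested genes, 6051 were higher and 5822 lower at that level.

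**Figure D5:**
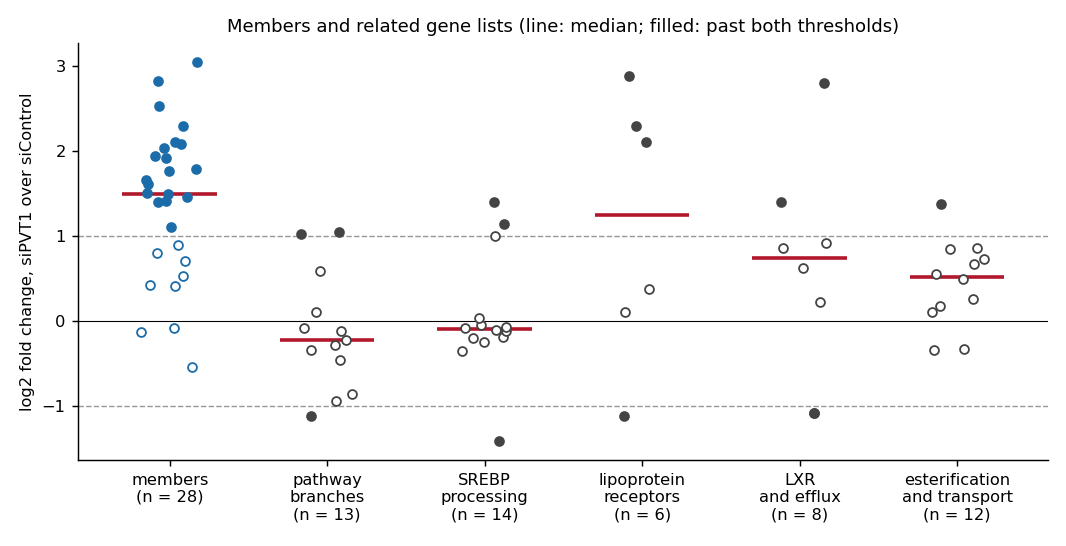
Log2 fold change of siPVT1 over siControl (vertical axis) for the 28 members and for the tested genes of 5 related lists, with a red line at each median, filled points past both thresholds and dashed lines at -1 and 1. The medians are 1.498 for the members, -0.23 for pathway branches, -0.098 for SREBP processing, 1.24 for lipoprotein receptors, 0.74 for LXR and efflux and 0.52 for esterification and transport.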

How the data were processed

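The authors sequenced mRNA as single-end reads, aligned them with STAR 2.7.3a to the GENCODE transcriptome of GRCh38.p13, quantified with Salmon 0.14.1 (versions per the submitters' processing notes) and deposited whole-number estimated counts for each gene symbol, not normalized. The strand setting is not given in the sources used here, so reads of genes that overlap on opposite strands may be mixed. These counts were scaled by TMM and fitted on the whole table with edgeR 4.0.16 in R 4.3.3 (quasi-likelihood, siRNA as the only term), keeping genes that reached 5 normalized counts in 3 or more libraries. P-values were adjusted over all 19008 genes by the Benjamini-Hochberg method. A standard error is the absolute log2 fold change over the square root of F. The study's methods used DESeq2, here version 1.42.0, as an alternative. Normalized counts are counts divided by each library's TMM-scaled size relative to the mean. The code of the fits was run on simulated counts, with few changed genes, balanced in direction, and the same dispersion in both groups. Such counts are unlike these data, so that run does not check the scaling or the error rates here. GENCODE v44 (GRCh38) gave lengths, overlaps and positions. Members and lists were chosen with earlier results of these data known, and the text names all 28 members, PVT1 and at most 4 called genes of each related list. Results for some genes of the lists are not reported here. Other settings were DESeq2 size factors, scaling by the total count, no filter, filterByExpr, the replicate number as a block, a test against a 2-fold change, the adjusted p alone and each library left out.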

Additional observations from a re-analysis of the deposited data

How the results depend on the processing

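Each of the 28 members kept its direction in all settings tried. None gained or lost its call by both thresholds together when a library was left out. By the adjusted p alone, MYLIP lost it without any of the siControl libraries, and SCAP gained it without siPVT1 replicate 3. With TMM the median of all tested genes was 0.0014, and scaling by the total count moved it to -0.148. That scaling gave 18 members higher in place of 19 and 13 enzymes in place of 14 (CYP51A1 at 0.96), a median of 1.35 for the members in place of 1.498, and a ratio of 2.92 for the summed enzymes. It gave 1835 higher and 2355 lower genes in all, against 2248 and 1833. With the adjusted p alone, 25 members were higher, among them 4 uptake and transport genes, and 1 was lower (SCARB1). In the related lists, 37 genes were called in place of 15. That rule called 29.5% of all tested genes higher and 28.4% lower. A test against a 2-fold change left 17 members and 7 genes of those lists. Of all 19008 tested genes, it called 1184 higher and 792 lower. Without 1 library, the members' median lay between 1.47 and 1.56. The other settings, DESeq2 included, gave 19 members higher and 0 lower. Same-numbered replicates did not deviate together (correlations of -0.053, 0.076 and 0.015). With 3 libraries per group this cannot decide whether the number pairs the samples, which the labels do not say. With the replicate block 19 members were higher. Coding length kept 3 of the 5 leading genes, and the sterol regulatory element was found in 10 members with 1 mismatch allowed, where the exact motif gave 1. With 3 libraries per group, exact tests cannot go below 0.1.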
